A study of Mus musculus with 4 samples.

Results

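Kidneys from a mouse model of autosomal dominant polycystic kidney disease (ADPKD), in which cysts grow out of the tubules, were compared with wild-type (WT) kidneys for 10 genes of tryptophan breakdown and NAD synthesis. The genes were taken by name, as the rows of the deposited table named Afmid, Kmo, Kynu, Haao, Qprt, Acmsd, Naprt, Nampt, Nnmt and Nadk2. All 10 were among the 32151 named genes of the table, and all 10 passed the filter on low values, a mean of at least 0.5 FPKM (reads normalised for exon length and for library size) over the 4 libraries. The ADPKD group held 2 libraries from mice with the genotype Pkd1fl/fl; Cre/Esr1+, in which tamoxifen activates the Cre recombinase that cuts the floxed Pkd1 gene. The WT group held 2 libraries from mice given as wildtype. Tamoxifen at 10 mg/kg on postnatal day 10 stands in the labels of all 4 samples, WT included, and the model is described there as early-onset. The labels used here give neither the promoter that drives Cre, nor the age at collection, the strain or the sex of the mice, nor whether each library came from a separate animal, so p-values measure the spread between these libraries.

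NAD is the electron carrier of energy metabolism and the substrate of sirtuins, poly-ADP-ribose polymerases and NAD glycohydrolases. Kidney and liver can build it from tryptophan, by way of kynurenine, hydroxyanthranilate and quinolinate, and the enzymes of this route are known mainly from the proximal tubule in kidney. Acmsd draws an intermediate away from that route toward complete oxidation. NAD is also made from nicotinate (the Preiss-Handler route) and remade from nicotinamide (the salvage route), while methylation of nicotinamide removes it from salvage.

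The libraries held between 18001308 and 19955120 reads assigned to genes. Replicates correlated at 0.94 within ADPKD and 0.96 within WT on the log2 scale, across genes that are not independent replicates, and at 0.86 to 0.89 between groups. Pkd1 itself stood at 2.48 and 2.08 FPKM in ADPKD kidneys and at 1.97 and 2.12 FPKM in WT kidneys, values that overlap and that, summed over all exons and cells, cannot show whether some exons were deleted in some cells. The kidney markers Slc27a2 (proximal tubule), Umod (thick ascending limb) and Aqp2 (collecting duct) stood above 268 FPKM in every library. Liver and adrenal markers summed to 4.01 FPKM or less in ADPKD kidneys and to 7.07 FPKM or less in WT kidneys, for each list in each library, and the liver genes Cps1, Tat and Cyp2c29 were not used here. ADPKD replicate 2 stands apart: Xist was at 29.6 FPKM there and at 0.0217 FPKM or less in the other libraries, and the Y-linked gene Ddx3y was at 0.0482 FPKM there and at 8.46 FPKM or more in the others. The ADPKD libraries thus differ in these sex-linked genes as a female and a male do and are not repeats of 1 sample, while the spread of the WT pair may be technical. The 10 genes are therefore given with and without that library.

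In ADPKD kidneys 3 of the 5 genes that lead from formylkynurenine to nicotinate mononucleotide fell, as did the gene of the branch away from NAD, and the gene that methylates nicotinamide rose. By name, Haao, Acmsd, Kmo and Afmid fell and Nnmt rose, by limma at an adjusted p below 0.05 over all genes. Among all 17001 genes tested 4.78% fell and 9.43% rose, so that 14.2% were called, and those are the shares against which 4 falls, 1 rise and 5 calls of 10 are read. Qprt, Nadk2, Kynu, Naprt and Nampt did not pass the test. The median log2 fold change of the 10 genes was -0.80, against 0.18 for all genes tested. Groups did not overlap for 8 of the 10, all but Kynu and Nampt, as for 64.6% of all genes tested. Over all genes 1604 rose and 813 fell in the values as deposited, 999 rose and 1087 fell after quantile normalization and 741 rose and 876 fell with median-of-ratios scaling; the median of all genes moved to -0.0086 and 0.0085 with these scalings. None of the 10 genes changed direction under either scaling.

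**Figure D1:**
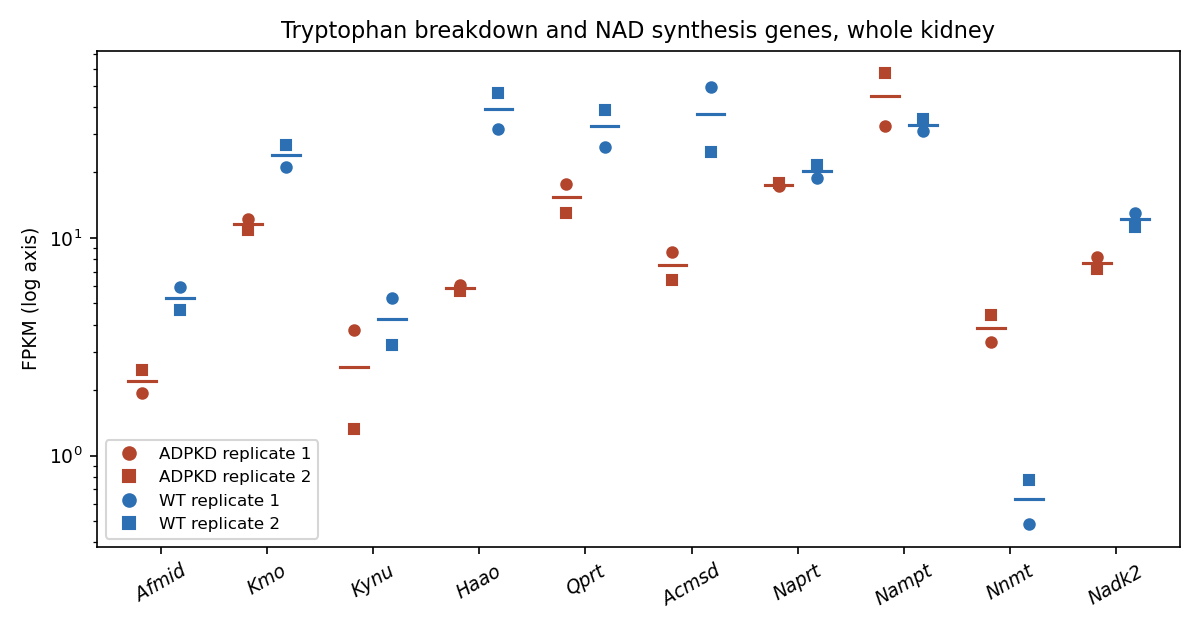
Level of each of the 10 genes (FPKM, log axis) in ADPKD (red, left of each pair) and WT (blue, right) kidneys. Circles are replicates 1, squares replicates 2, and horizontal bars the mean of 2 libraries. The ADPKD values lie below both WT values for Afmid, Kmo, Haao, Qprt, Acmsd, Naprt and Nadk2, and above both for Nnmt. For Kynu and Nampt 1 ADPKD value lies between the WT values, the other being below both for Kynu and above both for Nampt.

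Afmid encodes the formamidase that releases kynurenine from formylkynurenine, the second step of the route. It lies on chromosome 11 (117825924 to 117839908, GRCm38) and stood at 1.93 and 2.48 FPKM in ADPKD kidneys, against 5.98 and 4.65 FPKM in WT kidneys. Both ADPKD values lay below both WT values, with a log2 fold change, here and below on the log2(FPKM + 1) scale, of -0.97 ± 0.20 (SE; limma adjusted p = 0.0461). The call was lost with any 1 library left out (limma adjusted p = 0.112 to 0.212). Other genes overlap 46.6% of its exon length, Tk1 on the opposite strand and Gm20708 on the same strand, and counting did not use strand. Tk1, the thymidine kinase gene, stood at 3.72 and 2.63 FPKM in ADPKD kidneys and at 4.92 and 3.16 FPKM in WT kidneys, and Gm20708 at 0.0563 FPKM or less in all 4 libraries.

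Kmo encodes kynurenine monooxygenase, the mitochondrial outer membrane enzyme that hydroxylates kynurenine and is also known from macrophages and microglia. Kmo (chromosome 1, 175620381 to 175662116) stood at 12.2 and 10.9 FPKM in ADPKD kidneys, against 21.3 and 26.7 FPKM in WT kidneys. Its groups were well separated, with an ADPKD mean at 48.3% of the WT mean and a log2 fold change of -0.98 ± 0.18 (SE; adjusted p = 0.0370 by limma), and the call was lost with any 1 library left out (0.0786 to 0.154). Kynu, whose product kynureninase makes hydroxyanthranilate, lies on chromosome 2 (43555329 to 43682715). It stood at 3.79 and 1.32 FPKM in ADPKD kidneys, from 433 and 162 reads, and at 5.28 and 3.21 FPKM in WT kidneys, from 597 and 355 reads. Here the groups overlapped, since ADPKD replicate 1 lay above WT replicate 2, and the log2 fold change of -0.62 (95% interval -1.75 to 0.50) did not pass the test (limma adjusted p = 0.360). Without ADPKD replicate 2, the lowest library, it was -0.10.

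Haao showed the largest fall of the 10 genes. It encodes hydroxyanthranilate dioxygenase, which opens the ring to give the unstable intermediate shared by the NAD branch and the oxidation branch. Haao (chromosome 17, 83831156 to 83847963) stood at 6.05 and 5.72 FPKM in ADPKD kidneys, against 31.7 and 46.4 FPKM in WT kidneys. The ADPKD mean was 15.1% of the WT mean, and the log2 fold change of -2.51 ± 0.23 (SE; adjusted p = 0.0178 by limma) lay far beyond the spread within either group. Only 0.612% of all genes tested had a lower log2 fold change. Leaving out ADPKD replicate 2 gave -2.48 (limma adjusted p = 0.0781) and leaving out ADPKD replicate 1 gave -2.55 (0.0572), neither below the threshold of 0.05, and the call held when either WT library was left out.

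At the branch point, Acmsd competes with the spontaneous closure of the same intermediate to quinolinate, and Qprt turns quinolinate into nicotinate mononucleotide. Acmsd (chromosome 1, 127729413 to 127767978) stood at 8.58 and 6.39 FPKM in ADPKD kidneys, against 49.5 and 24.7 FPKM in WT kidneys. The WT libraries lay far apart, yet both stood above both ADPKD libraries, and the log2 fold change was -2.10 ± 0.37 (SE; adjusted p = 0.0354 by limma). The call held without WT replicate 2 and was lost without each of the other libraries (limma adjusted p = 0.0595 to 0.138). Qprt (chromosome 7, 127107114 to 127122226) stood at 17.7 and 13.02 FPKM in ADPKD kidneys, against 26.2 and 38.8 FPKM in WT kidneys. Its groups did not overlap, but the log2 fold change of -1.02 (95% interval -1.73 to -0.32) missed the threshold after adjustment over all genes (limma adjusted p = 0.0725). The ratio of Acmsd to Qprt within a library was 0.484 and 0.491 in ADPKD kidneys, and 1.89 and 0.637 in WT kidneys. Both ADPKD ratios lay below both WT ratios. These are ratios of plain FPKM, while the difference in log2 was taken on the log2(FPKM + 1) scale and came to -1.08. That difference shrank to -0.31 when WT replicate 1 was left out and grew to -1.84 when WT replicate 2 was. With 2 libraries a side the smallest p of an exact two-sided permutation test is 0.333, so no test of the ratio was made.

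Promoter sequences from RefSeq (GRCm38.p6, from 250 bases before to 50 bases after the annotated start) were used for 5 of the 10 genes, Afmid, Haao, Kmo, Nampt and Qprt. The gene spans given in this report come from another annotation, Ensembl. The windows of Haao, Kmo and Nampt lie wholly inside those spans, so they do not hold the outermost start of the gene. That of Haao is shown because it fell most. That of Nampt is shown as an example of a gene that did not pass the test, which Qprt did not pass either. Capitals mark CpG dinucleotides, and each sequence reads 5′ to 3′ in the direction of the gene.
Haao, chr17:83846741-83847040, minus strand: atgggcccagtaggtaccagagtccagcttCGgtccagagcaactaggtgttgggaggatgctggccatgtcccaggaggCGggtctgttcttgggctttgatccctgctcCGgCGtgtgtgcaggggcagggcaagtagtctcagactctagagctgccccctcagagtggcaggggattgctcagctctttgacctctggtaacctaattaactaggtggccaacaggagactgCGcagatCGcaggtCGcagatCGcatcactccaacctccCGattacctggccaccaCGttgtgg
Nampt, chr12:32820085-32820384, plus strand: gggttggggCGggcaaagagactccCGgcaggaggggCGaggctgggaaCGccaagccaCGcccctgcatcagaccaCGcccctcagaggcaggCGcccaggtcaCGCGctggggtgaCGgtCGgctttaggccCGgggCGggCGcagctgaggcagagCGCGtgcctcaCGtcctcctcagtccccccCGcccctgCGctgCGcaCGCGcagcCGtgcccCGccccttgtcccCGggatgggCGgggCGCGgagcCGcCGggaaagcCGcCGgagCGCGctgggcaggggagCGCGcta
The Nampt window held 36 CpG dinucleotides, with 10 in Haao, 7 in Kmo, 7 in Qprt and 18 in Afmid; the median of all 32851 promoters of the table was 7. Each was searched on both strands for the AP-1 motif TGANTCA, the E-box CACGTG, the HNF1 half-site GTTAAT and the nuclear receptor half-site AAGGTCA, which do not overlap in these windows. The only match in the 5 windows was an HNF1 half-site in Haao, on the opposite strand, beginning 41 bases before the RefSeq start. Such a match occurred in 7.10% of all promoters, and the other 3 motifs in 7.81%, 7.15% and 4.72%. A match is a run of letters and not a bound site.

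The routes from nicotinate and nicotinamide showed no called change. Naprt, the first enzyme of the Preiss-Handler route (chromosome 15, 75890956 to 75894481), stood at 17.3 and 17.9 FPKM in ADPKD kidneys, against 18.8 and 21.6 FPKM in WT kidneys. Its groups did not overlap but lay close, and the log2 fold change was -0.19 (95% interval -0.58 to 0.21, limma adjusted p = 0.425). Exons of Eef1d overlap 11.8% of its exon length. Nampt, the rate-limiting enzyme of salvage, which leukocytes also express strongly, lies on chromosome 12 (32819545 to 32853349). It stood at 32.6 and 57.1 FPKM in ADPKD kidneys, against 30.9 and 35.4 FPKM in WT kidneys. Only ADPKD replicate 2 lay above both WT libraries, and the log2 fold change of 0.38 (95% interval -0.42 to 1.17) did not pass the test (limma adjusted p = 0.429). Without ADPKD replicate 2 it was -0.02, and without ADPKD replicate 1 it was 0.77. The 4 neutrophil markers summed to 41.6 and 387 FPKM in ADPKD kidneys, the second value in the library with more Nampt, and to 0.800 and 1.40 FPKM in WT kidneys; their part in the Nampt values was not tested.

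Nnmt, the methyltransferase that takes nicotinamide out of salvage with S-adenosylmethionine as donor, rose. Nnmt (chromosome 9, 48591877 to 48605153) stood at 3.32 and 4.42 FPKM in ADPKD kidneys, from 97 and 139 reads, against 0.483 and 0.775 FPKM in WT kidneys, from 14 and 22 reads. The groups were far apart, with an ADPKD mean 6.15 times the WT mean and a log2 fold change of 1.58 ± 0.21 (SE; adjusted p = 0.0258 by limma), a call lost with any 1 library left out (0.0570 to 0.0902). The log2(FPKM + 1) scale understates this change, which came to 2.46 when the pseudocount was 0.1 and to 2.62 on recovered reads (voom). The ratio of Nnmt to Nampt was 0.102 and 0.0774 in ADPKD kidneys, against 0.0156 and 0.0219 in WT kidneys, and its groups did not overlap. Fibroblasts are a known source of Nnmt, and the 6 fibroblast markers summed to 264 and 188 FPKM in ADPKD kidneys, against 53.1 and 53.4 FPKM in WT kidneys; 4 of the 6 rose and 0 fell (limma), with 5 of 6 at an unadjusted p below 0.05 and Lum at 0.471 to 0.9998 FPKM in the 4 libraries. Of all genes tested 9.43% rose, and the part of the fibroblast markers in the Nnmt result was not tested.

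Nadk2, the mitochondrial kinase that makes NADP from NAD (chromosome 15, 9071260 to 9110891), stood at 8.20 and 7.22 FPKM in ADPKD kidneys, against 13.1 and 11.3 FPKM in WT kidneys. Its groups did not overlap, and the log2 fold change of -0.59 (95% interval -1.03 to -0.16) did not pass the test (limma adjusted p = 0.0803). It passed after quantile normalization (-0.82, limma adjusted p = 0.0432) and with median-of-ratios scaling (-0.80, limma adjusted p = 0.0430).

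The order of the 10 levels differed between the groups. In ADPKD kidneys Nampt came first with a mean of 44.8 FPKM, and Naprt (17.6), Qprt (15.4) and Kmo (11.6 FPKM) followed. Nadk2 (7.71), Acmsd (7.49) and Haao (5.89 FPKM) came next, ahead of Nnmt (3.87), Kynu (2.56) and Afmid (2.21 FPKM). In WT kidneys Haao came first with 39.0 FPKM, then Acmsd (37.1), Nampt (33.1), Qprt (32.5), Kmo (24.0) and Naprt (20.2 FPKM), and each neighbouring pair of these 6 overlapped. Nadk2 (12.2), Afmid (5.31) and Kynu (4.24 FPKM) came next in WT, with Afmid and Kynu overlapping, and Nnmt (0.629 FPKM) was last. In ADPKD kidneys 4 of the 9 neighbouring pairs overlapped, Naprt with Qprt, Nadk2 with Acmsd, Nnmt with Kynu and Kynu with Afmid.

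Other genes of tryptophan and NAD metabolism, 57 in 9 lists chosen by role, were read from the same test. Of the 46 that passed the filter 7 fell and 3 rose, beside 4.78% and 9.43% of all genes tested, with a median log2 fold change of -0.19, against 0.18 for all genes. Of the genes for the first step of the route, which opens the indole ring of tryptophan, only Ido2 passed the filter. Ido2 stood at 0.133 and 0.0965 FPKM in ADPKD kidneys, from 9 and 7 reads, against 1.75 and 4.71 FPKM in WT kidneys. It fell (log2 fold change -1.83, limma adjusted p = 0.0487). Its mean was 0.115 FPKM in ADPKD kidneys and 3.23 FPKM in WT kidneys, so it entered the test only through WT. Its call is thus not independent of the filter and does not speak for the whole step. That call was lost with quantile normalization (limma adjusted p = 0.0583) and median-of-ratios scaling (0.0670). Tdo2 and Ido1, the other enzymes of that step, did not pass the filter: Tdo2 was at 0.0694 and 0.0775 FPKM in ADPKD kidneys and at 0.0841 and 0.129 FPKM in WT kidneys. Ido1 was listed at 0 in both ADPKD libraries and at 0.0298 and 0.183 FPKM in WT kidneys.

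Among side branches of the kynurenine route, 1 of 4 aminotransferase genes fell and 3 of 4 genes downstream of Acmsd did, beside 4.78% of all genes tested. Aadat, an aminotransferase that makes kynurenate and also degrades lysine, stood at 44.3 and 18.5 FPKM in ADPKD kidneys, against 303 and 322 FPKM in WT kidneys. Both WT values were more than 6 times either ADPKD value, and Aadat fell by a log2 fold change of -3.40 ± 0.43 (SE; adjusted p = 0.0243 by limma). It was -2.79 without ADPKD replicate 2 (limma adjusted p = 0.0662), and the call was also lost without WT replicate 2 (0.0639). The 3 other aminotransferases did not pass the test, among them Got2 (-0.52, 95% interval -0.97 to -0.07) and Kyat3 (-0.69, 95% interval -1.42 to 0.05). The genes downstream of Acmsd serve the breakdown by way of glutaryl-CoA to acetyl-CoA. Aldh8a1, the dehydrogenase that acts next after Acmsd, stood at 23.0 and 17.8 FPKM in ADPKD kidneys, against 60.5 and 79.8 FPKM in WT kidneys (log2 fold change -1.73, SE 0.22, limma adjusted p = 0.0245). Gcdh, glutaryl-CoA dehydrogenase, stood at 59.9 FPKM in both ADPKD libraries, against 131 and 157 FPKM in WT kidneys (-1.25, SE 0.16, limma adjusted p = 0.0248). Acat1, the mitochondrial thiolase, stood at 36.4 and 39.1 FPKM in ADPKD kidneys, against 98.5 and 183 FPKM in WT kidneys (-1.80, SE 0.33, limma adjusted p = 0.0367), a call lost with median-of-ratios scaling (0.0551). Dhtkd1 had a log2 fold change of -0.75 and did not pass. Inmt, which methylates indole amines, stood at 25.4 and 2.85 FPKM in ADPKD kidneys, against 131 and 292 FPKM in WT kidneys, and did not pass (-4.29, SE 1.01, limma adjusted p = 0.0597); it was called with voom on recovered reads (adjusted p = 0.0333), and the log2 fold change came to -2.90 when ADPKD replicate 2 was left out and to -5.68 when ADPKD replicate 1 was. Ddc, the aromatic amino acid decarboxylase gene, had a log2 fold change of -0.20.

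The list for NAD assembly and nucleoside salvage had 6 genes tested, Nmnat1, Nmnat3, Nadsyn1, Nmrk1, Pnp and Nt5e. Of these limma called 0, with 2 at an unadjusted p below 0.05, and voom on recovered reads called 0. Of all 17001 genes tested, 14.2% were called and 5878 had an unadjusted p below 0.05, so these counts do not set the 6 genes apart. Nmnat1, the nuclear adenylyltransferase, stood at 3.21 and 3.61 FPKM in ADPKD kidneys, against 6.29 and 5.78 FPKM in WT kidneys (log2 fold change -0.67, limma adjusted p = 0.0607). Nadsyn1, the NAD synthetase, stood at 4.79 and 3.97 FPKM in ADPKD kidneys, against 6.83 and 8.89 FPKM in WT kidneys (-0.71, limma adjusted p = 0.0817). For both genes the groups did not overlap, and quantile normalization called both (limma adjusted p = 0.0414 and 0.0427). Nmrk1, the nicotinamide riboside kinase gene, had a log2 fold change of -0.39 (95% interval -0.91 to 0.13). Of the genes for NADP and mitochondrial NAD, Nnt, the transhydrogenase, stood at 8.80 and 18.1 FPKM in ADPKD kidneys, against 30.9 and 39.3 FPKM in WT kidneys (-1.39, limma adjusted p = 0.0735); voom on recovered reads called it (adjusted p = 0.0490). The cytosolic NAD kinase gene Nadk and the mitochondrial NAD carrier gene Slc25a51 had log2 fold changes of -0.20 and -0.15. Aox1 and Aox3, oxidases of methylnicotinamide, stood at 0.192 FPKM or less in all 4 libraries and were not tested.

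Among 18 NAD-consuming enzymes tested, 3 rose and 0 fell, with a median log2 fold change of 0.47; of all genes tested 9.43% rose and the median was 0.18, so the count is near the background. Bst1, a cell surface ADP-ribosyl cyclase of bone marrow stroma and myeloid cells, stood at 35.9 and 71.8 FPKM in ADPKD kidneys, against 2.95 and 3.47 FPKM in WT kidneys. Both ADPKD values were at least 10 times either WT value, with a log2 fold change of 3.62 ± 0.36 (SE; adjusted p = 0.0194 by limma, 0.0662 without ADPKD replicate 2). Its relative Cd38, named after its values were seen, stood at 4.58 and 12.4 FPKM in ADPKD kidneys, against 1.96 and 1.93 FPKM in WT kidneys, and did not pass (1.56, limma adjusted p = 0.0870). The ADP-ribosyltransferase genes Parp14 (1.34, SE 0.18, limma adjusted p = 0.0260) and Parp9 (0.996, SE 0.16, limma adjusted p = 0.0304) rose, and Parp9 was not called after quantile normalization (limma adjusted p = 0.0517) or with median-of-ratios scaling (0.0625). Beside these genes the 6 macrophage markers summed to 301 and 827 FPKM in ADPKD kidneys, against 44.6 and 78.8 FPKM in WT kidneys, and 5 of 6 rose; their part in the rise of Bst1, Parp14 and Parp9 was not tested. Of 8 regulators, Hnf4a, a nuclear receptor of proximal tubule and liver, stood at 87.4 and 71.6 FPKM in ADPKD kidneys, against 140 and 154 FPKM in WT kidneys, and fell (-0.89, SE 0.17, limma adjusted p = 0.0425), a call lost after quantile normalization (0.0709). Esrra, the estrogen-related receptor alpha gene of mitochondrial metabolism, also fell (-0.87, SE 0.14, limma adjusted p = 0.0320). Ahr, the receptor for kynurenine and other aromatic ligands, had a log2 fold change of 0.93 (95% interval 0.16 to 1.70) and did not pass (limma adjusted p = 0.102).

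**Figure D2:**
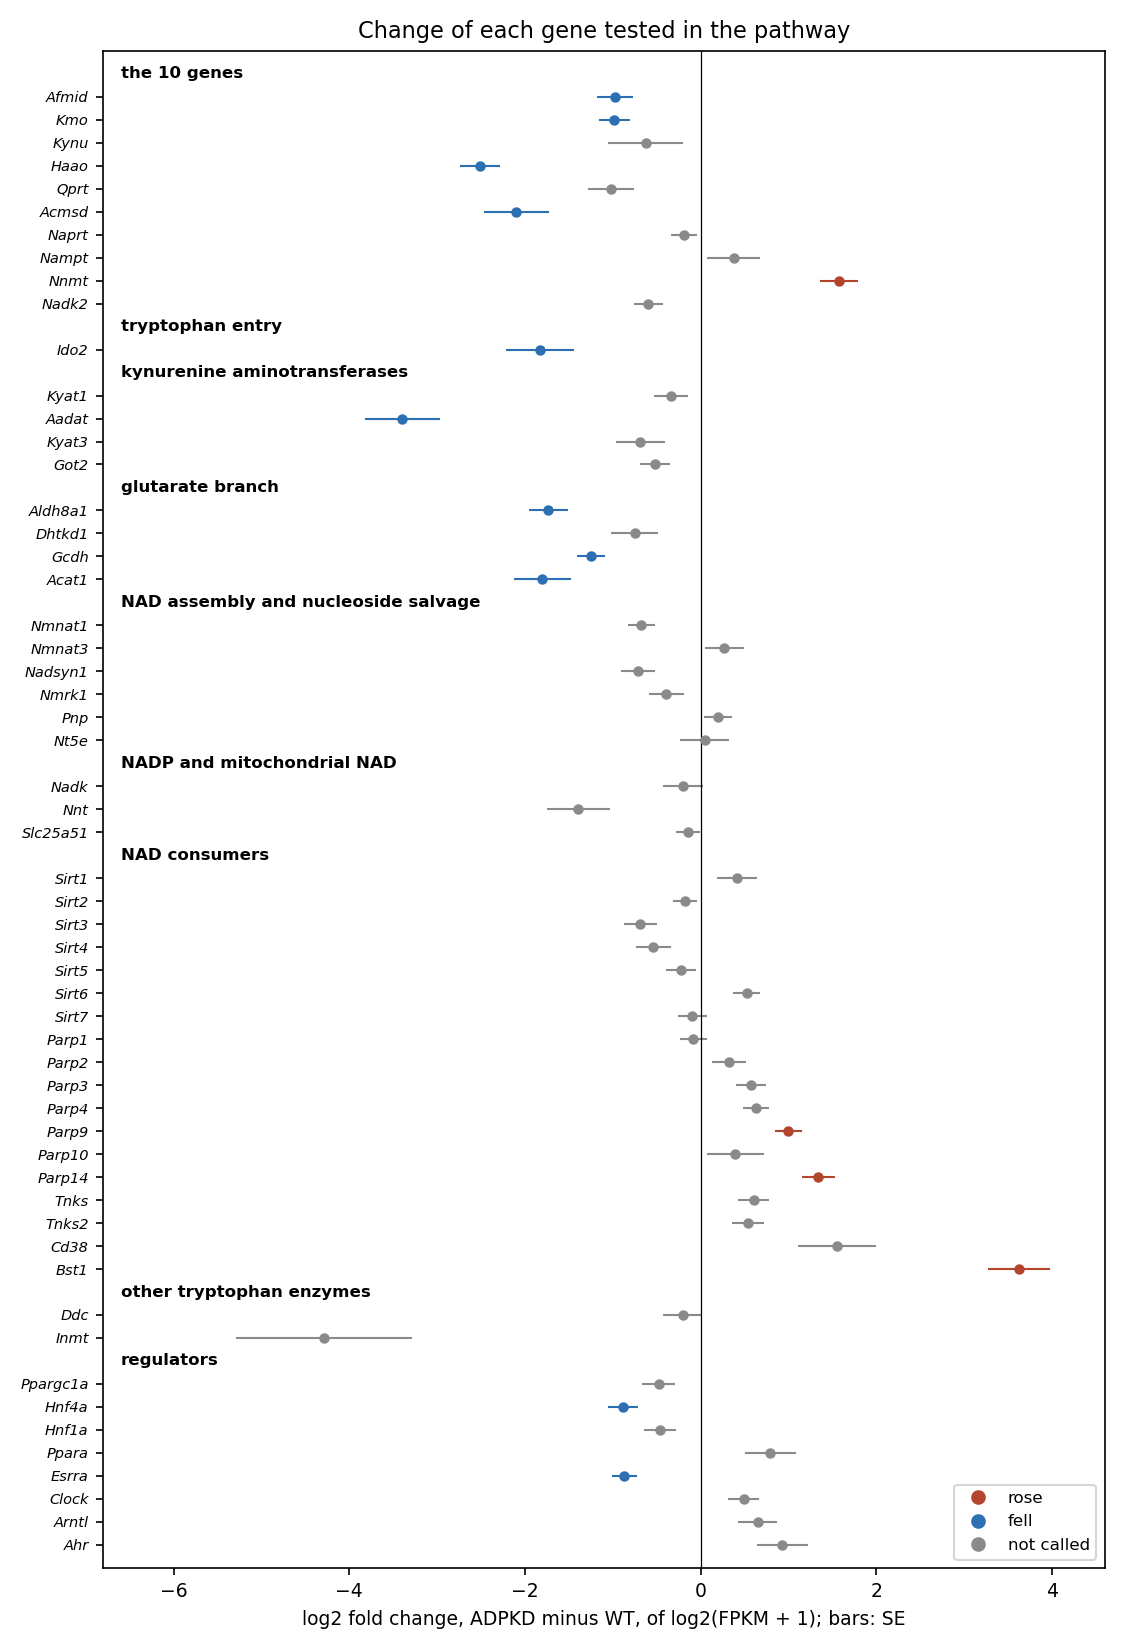
Log2 fold change (ADPKD minus WT, on the log2(FPKM + 1) scale) with its standard error for the 10 genes and the 46 other pathway genes tested, by list. Red points rose, blue points fell and grey points did not pass limma at an adjusted p below 0.05. Inmt (grey) lies farthest left and Bst1 farthest right. Among the other points to the left are Haao, Acmsd, Aadat, Ido2 and the glutarate branch. Among those to the right are Nnmt, Cd38 (grey), Parp9 and Parp14.

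Whole kidney holds many cell types, and in such samples fewer cells of a type and less RNA per cell cannot be told apart. Of the 10 proximal tubule markers 6 fell and 0 rose, beside 4.78% and 9.43% of all genes tested. Their median log2 fold change was -1.63, with a range from -2.79 to 0.24. Their summed level was 948 and 803 FPKM in ADPKD kidneys, against 2680 and 2647 FPKM in WT kidneys. No marker of the lists for tubule segments, fibroblasts, leukocytes or endothelium was at 0 in all libraries. Thick ascending limb markers summed to 572 and 349 FPKM in ADPKD kidneys, against 915 and 1217 FPKM in WT kidneys, and collecting duct markers to 453 and 459 FPKM in ADPKD kidneys, against 635 and 442 FPKM in WT kidneys. Endothelial markers summed to 15.8 and 25.8 FPKM in ADPKD kidneys, against 32.9 and 32.2 FPKM in WT kidneys. These sums weigh the marker with the highest level most, and single markers differed. Of the 4 thick ascending limb markers 1 fell (limma), while Cldn16 was higher in both ADPKD libraries than in either WT library. All 4 collecting duct markers had negative log2 fold changes (-2.32 to -0.01), with 0 called. The 4 endothelial log2 fold changes were also negative, with 0 called, and the groups overlapped for Pecam1 and Cdh5. The summed level of Afmid, Kmo, Kynu, Haao, Qprt and Acmsd was 50.4 and 39.8 FPKM in ADPKD kidneys, against 139.9 and 144 FPKM in WT kidneys. Each of the 10 genes was then set, within each library, against the mean log2 level of the 10 proximal tubule markers, which differed by -1.46 between the groups. Relative to that mean, 2 genes were lower in ADPKD kidneys, Haao by -1.05 and Acmsd by -0.64, and 8 were higher. The relative log2 level of Haao was -2.87 and -2.48 in ADPKD kidneys, against -2.01 and -1.24 in WT kidneys. For Acmsd it was -2.43 and -2.34 in ADPKD kidneys, against -1.38 and -2.12 in WT kidneys, and for Kmo -1.96 and -1.65 in ADPKD kidneys, against -2.56 and -2.01 in WT kidneys. No test of these relative levels was made, and the part of the tubule markers in the falls was not tested.

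**Figure D3:**
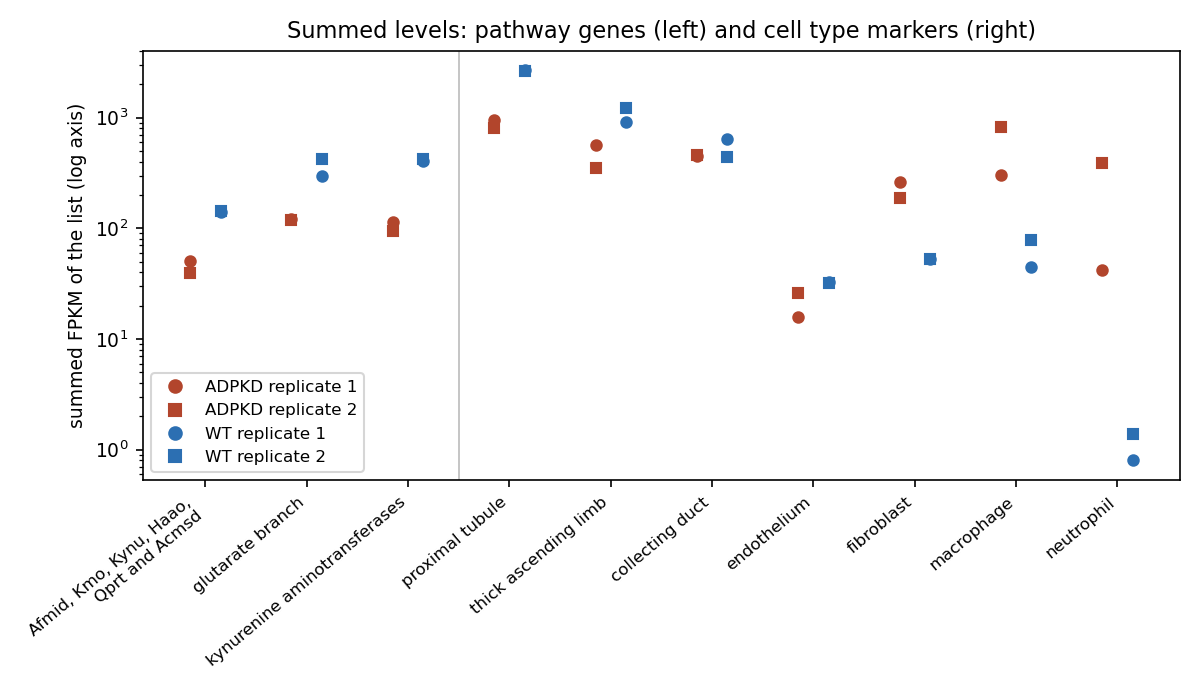
Summed FPKM (log axis) of 3 groups of pathway genes (6 of the 10 genes, the glutarate branch and the aminotransferases), left of the line, and of the marker lists of 7 cell types, right of it, in ADPKD (red, left of each pair) and WT (blue, right) kidneys; circles are replicates 1 and squares replicates 2. The sums of the pathway groups and of the proximal tubule, thick ascending limb and endothelial markers are lower in both ADPKD libraries. The sums of the fibroblast, macrophage and neutrophil markers are higher, and those of the collecting duct markers overlap. Single markers of a list can differ from its sum.

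The calls depended on single libraries. For the 8 of the 10 genes whose groups did not overlap, leaving out 1 library cannot change the direction of the log2 fold change. Of the remaining genes, Kynu stayed negative when any 1 library was left out. Nampt was positive with all libraries and came to -0.02 without ADPKD replicate 2. Without ADPKD replicate 2, the library with Xist, limma called 0 of 16978 genes (0%) and 0 of the 10, with 5039 genes and 5 of the 10 at an unadjusted p below 0.05. The log2 fold changes without it were -2.48 for Haao, -1.91 for Acmsd, -0.91 for Kmo, -1.10 for Afmid and 1.41 for Nnmt. Among the genes that did not pass the test they were -0.81 for Qprt, -0.51 for Nadk2 and -0.21 for Naprt. Without ADPKD replicate 1, 3.30% of genes and 0 of the 10 were called (9 of the 10 at an unadjusted p below 0.05). Without WT replicate 1, 3.37% of genes and 1 of the 10, Haao, were called, and without WT replicate 2, 1.55% of genes and 2 of the 10, Haao and Acmsd. Of the other pathway genes 3 were called without ADPKD replicate 1, 0 without ADPKD replicate 2 (21 at an unadjusted p below 0.05), 5 without WT replicate 1 and 1 without WT replicate 2. Leaving out each library in turn kept the call of Bst1 in 3 of 4 cases, of Aadat in 2, of Ido2, Aldh8a1 and Acat1 in 1 and of Gcdh, Parp14, Parp9, Hnf4a and Esrra in 0. Leaving out a library leaves a group with a single one, which is then assumed to vary like the other group.

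**Figure D4:**
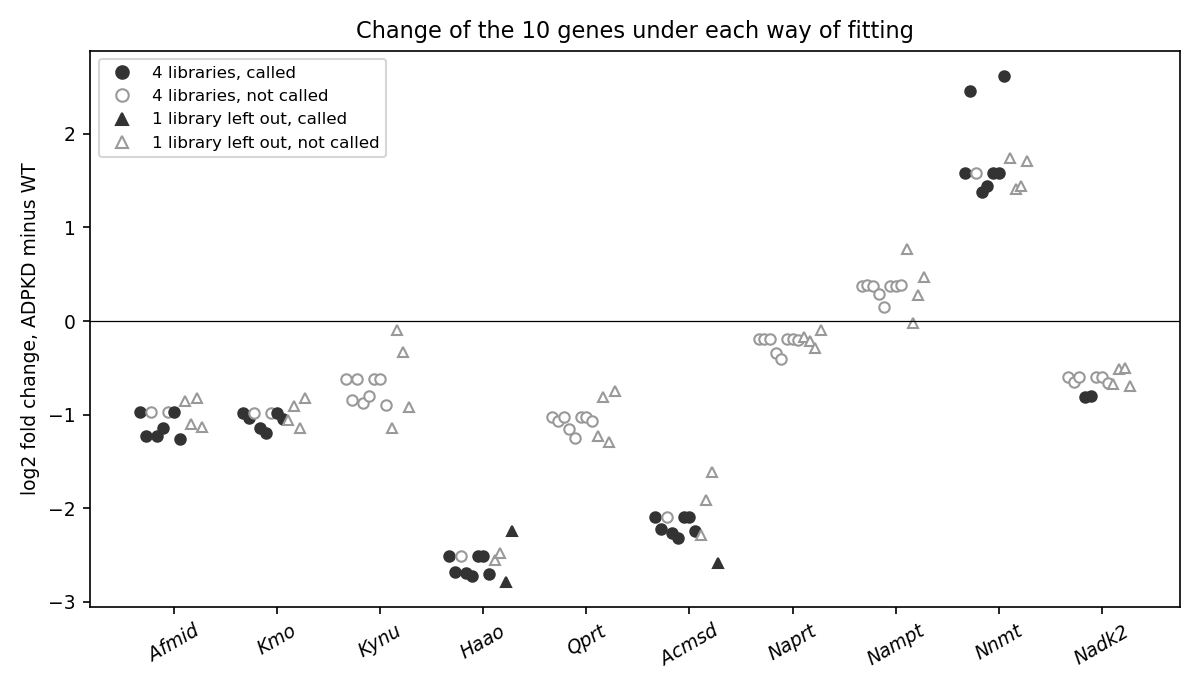
Log2 fold change (ADPKD minus WT) of each of the 10 genes with all 4 libraries (circles: the values as reported and 7 other ways of fitting) and with 1 library left out (triangles). Filled symbols were called at an adjusted p below 0.05. Haao and Acmsd stay below -1.6 and Nnmt above 1.3 throughout, while Nampt lies on both sides of 0.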

How the data were processed

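RNA of whole kidney (TRIzol extraction, oligo dT selection, per the labels' protocols) was sequenced in 2 ADPKD and 2 WT libraries, grouped by their titles. The authors deposited FPKM per gene. Bowtie2, DESeq2 and mm10 are named in the submitters' processing notes without roles or versions. Exon lengths (another unit, bases) and positions came from the deposited featureCounts 1.6.0 table (Ensembl GRCm38 release 98; reads counted per gene name, multi-mapping reads included, no strand or paired option, per the file headers). Its 16 other value columns were not used. Of these, 8 held counts for WT and PKD libraries that could not be matched by name to those used here, and 8 were unnamed. Of 32176 rows, 25 named as dates were left out. FPKM multiplied by exon length gave whole reads within 0.01 for 100% of values; 1 read on 1 kb was worth 0.0501 to 0.0556 FPKM, and 0 allows up to 3 reads, for counting error only.

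Log2(FPKM + 1) of the 17001 genes with a mean of at least 0.5 FPKM was fitted across all genes with limma 3.58.1 (R 4.3.3; intensity trend, two-sided moderated test, Benjamini-Hochberg, 2 residual and 2.55 prior degrees of freedom) and was tested on simulated data. The members, lists, rules and tests were chosen with earlier results of these data known. Named genes are the 10 members, the 3 smallest adjusted p and the highest mean of each pathway list, and the highest mean of each cell type list. Levels relative to tubule markers were added after the values were seen. Alternatives were a pseudocount of 0.1, no filter, quantile and median-of-ratios scaling, the replicate block, a robust prior, voom on recovered reads and each library left out.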

Additional observations from a re-analysis of the deposited data

How the results depend on the processing

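With 2 libraries per group the calls depended on the fit. Without a filter on low values limma called 1 gene of 32151, 0 of the 10 and 0 of the 57 other pathway genes, with 7251, 7 and 25 at an unadjusted p below 0.05; voom on recovered reads called 3039, 5 and 14. The replicate numbers come from the titles, and whether they carry a pairing or batch is not known. Deviations of libraries with the same number correlated at 0.19. With 2 libraries per group those with crossed numbers must give the negative of that value, -0.19, so it cannot decide this. The replicate block called 1845 genes, 3 of the 10 (Haao, Acmsd and Nnmt, without Kmo and Afmid) and 8 other pathway genes. Nnt was gained there, and Ido2, Hnf4a and Esrra were lost. With 1 library left out the calls ranged from 0 to 574 over all genes, from 0 to 2 of the 10 and from 0 to 5 of the other pathway genes. The median log2 fold change of the 10 was -1.01 with quantile normalization, -0.98 with median-of-ratios scaling and -0.97 with voom on recovered reads, and -0.96 to -0.66 with 1 library left out; the cause was not tested. A pseudocount of 0.1 and the robust prior kept all 5 calls among the 10. Depth limits Nnmt, with 14 and 22 reads in WT, and Ido2, with 9 and 7 reads in ADPKD.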
